A study of Homo sapiens with 6 samples.

Results

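The 10 genes described here code for the core of the Notch pathway in SW839 cells. They comprise the receptors NOTCH1, NOTCH2, NOTCH3 and NOTCH4, the ligands JAG1, JAG2 and DLL1, and the target genes HES1, HES4 and HEY1. They were chosen by symbol, and all 10 were among the 30267 genes of the deposited table. SW839 is an established human renal cell carcinoma line. Cells of the shRNF25 group carried a short hairpin RNA against RNF25, an E3 ubiquitin ligase, and cells of the shControl group carried the pLKO vector, each with 3 libraries of total RNA depleted of ribosomal RNA. According to the study's methods, stable lines were made by lentiviral infection and puromycin selection. The library names show a single hairpin name. Those of the shRNF25 group form a numbered series, and those of the shControl group do not. The treatment text of the control libraries names the shRNF25 plasmid too, so that the groups rest on titles, genotypes and library names. The comparison asked how Notch gene expression differed when RNF25 was knocked down.

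Notch receptors are single-pass membrane proteins that bind Jagged or Delta-like ligands on a neighbouring cell. Binding exposes the receptor to cleavage by ADAM proteases and then by γ-secretase, which frees the intracellular domain. This domain enters the nucleus, joins the DNA-binding protein RBPJ and a Mastermind coactivator, and turns on genes of the HES and HEY repressor families. In the developing kidney, Notch2 is needed for the proximal nephron, from which clear cell renal carcinoma is thought to arise.

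HES1 and HES4 are target genes whose means differed in opposite directions between the groups, and their promoters are shown because both hold an RBPJ-type sequence at almost the same place. Each window, from RefSeq on GRCh38.p14, runs 5′ to 3′ from 250 bases before to 50 bases after the gene's start. Capitals mark GTGGGAA and the shorter TGGGAA it contains, searched on both strands. HES1 is on the plus strand at chr3:194135898-194136197 and HES4 on the minus strand at chr1:1000048-1000347.
HES1: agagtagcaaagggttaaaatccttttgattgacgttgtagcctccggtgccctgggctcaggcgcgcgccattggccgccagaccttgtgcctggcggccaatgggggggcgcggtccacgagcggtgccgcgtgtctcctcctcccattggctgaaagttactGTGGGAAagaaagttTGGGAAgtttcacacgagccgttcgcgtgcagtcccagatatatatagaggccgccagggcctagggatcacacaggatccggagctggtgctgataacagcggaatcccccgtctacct
HES4: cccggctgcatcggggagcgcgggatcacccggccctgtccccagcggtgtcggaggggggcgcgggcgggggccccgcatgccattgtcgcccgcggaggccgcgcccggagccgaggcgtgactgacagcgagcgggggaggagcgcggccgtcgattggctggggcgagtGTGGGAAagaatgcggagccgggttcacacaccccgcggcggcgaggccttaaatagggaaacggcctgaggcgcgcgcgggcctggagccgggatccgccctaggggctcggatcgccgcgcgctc

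GTGGGAA begins at -85 from the start in HES1 and at -77 in HES4, on the strand of the gene in both. Of 35116 promoter windows of this length, 6.25% hold GTGGGAA on either strand. HES1 holds a second TGGGAA at -70, and 3.80% of all windows have at least 2 matches of TGGGAA against 24% with at least 1. The N box CACNAG, a sequence that HES proteins bind, matched 4 times in the HES1 window and 0 times in the HES4 window. Of all windows, 38.0% hold at least 1 match and 8.94% at least 2. The N box also matched 2 times in the NOTCH1 window, 1 time each in those of NOTCH2, NOTCH3 and NOTCH4, and 0 times in those of JAG1 and JAG2. Neither GTGGGAA nor TGGGAA matched in the windows of NOTCH1, NOTCH2, NOTCH3, NOTCH4, JAG1 and JAG2. The windows of HES1 and HES4 also differ in base composition, with 59.0% and 75.7% G and C.

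Library depth was even, with 18647460 to 19943154 reads on genes. All 9 tested members varied more on the log2 scale among the shControl libraries than among the shRNF25 libraries. This was not particular to them. Across all genes tested, the shControl libraries correlated with each other at 0.9761 to 0.9875 and the shRNF25 libraries at 0.9941 to 0.9944 (Pearson r of log2 values). Among the 9 tested members, shControl replicate 1 held the lowest control value of 7, while it held the lowest for 39.5% of all genes tested. The highest control value of 7 members was in shControl replicate 3, which held the highest for 31.6% of all genes. The library shControl replicate 1 carried 12.1% of its reads on the 36 mitochondrial genes, against 3.58% to 4.44% in the other 5. It was also low for GC-rich transcripts in general, with a median of -0.31 on the log2 scale relative to the mean of the controls for genes above 65% GC and 0.27 for genes up to 40% GC. The part of either property in the results was not tested. The members NOTCH1, NOTCH3, JAG2 and HES4 have transcripts of 62.9% to 73.9% GC, NOTCH2, JAG1, HES1 and HEY1 of 47.3% to 49.9%, and DLL1 of 58.3%. Members' results are therefore also given after a correction for GC content, chosen after the data had been seen, or without shControl replicate 1.

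RNF25, the target of the hairpin, had normalized counts of 694, 534 and 536 in the shControl libraries and of 214, 246 and 265 in the shRNF25 libraries. Its level in shRNF25 was 41.1% of that in shControl (log2 fold change -1.27 ± 0.150, standard error; limma adjusted p = 0.000585). Of 9 renal epithelial and renal carcinoma markers, 8 were in the table and summed to 65369 to 85493 in shControl and 76572 to 80037 in shRNF25. The keratin genes KRT8, KRT18 and KRT19 made up nearly all of this sum. KRT8 had means of 28459 and 36519 (adjusted p = 0.111 from limma), and KRT19 of 30927 and 22164 (adjusted p = 0.0278 from limma, under the fold change of 1.5). VIM, the mesenchymal filament gene vimentin that renal carcinoma also expresses, rose from a mean of 355 to 832, a log2 fold change of 1.31 (adjusted p = 0.00805 from limma). The renal transcription factor gene PAX8 (76.7 to 140) was detected in every library. CA9, a marker of clear cell renal carcinoma, was low at 1.85 to 50.7, and CDH6 lay at 0 to 12.95. Among markers of other cells, the T cell gene CD3E and the fibroblast gene DCN had at most 1 read in any library, and the 4 leukocyte markers in the table summed to 12.95 to 25.7 in shControl and 12.4 to 22.2 in shRNF25. The 5 fibroblast and pericyte markers summed to 1139.9 to 1329 and 907 to 1054, nearly all of it COL1A1. CDH5 lay at 73.0 to 199 in shControl and at 3.64 to 8.31 in shRNF25 (log2 fold change -4.12, adjusted p = 0.000213 from limma). KDR lay at 17.3 to 29.8 in shControl and at 81.3 to 88.4 in shRNF25 (log2 fold change 1.78, adjusted p = 0.00116 from limma). The 6 endothelial markers summed to 503 to 702 and 499.6 to 651, most of it PECAM1, and the part of these lists in the results was not tested. In bulk RNA, fewer cells of a kind and less RNA per cell cannot be told apart.

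A gene was called where limma gave an adjusted p below 0.05 over all genes tested and the fold change was at least 1.5, on the log2(normalized count + 1) scale. Of the 10 members, 9 passed the filter on low values and NOTCH4 did not. NOTCH3 fell and HES1 rose, and the other 7 tested members did not pass. Among all 16554 genes tested, 7.10% were called lower and 8.65% higher, so that 1 call in each direction among 9 members was close to the share of genes at large. By the adjusted p alone, 2 members were lower and 2 higher, where 10.8% and 10.5% of all genes were, or 21.3% in either direction. For 7 of the 9 members the groups were without overlap, 4 with shRNF25 lower and 3 with it higher, where the shares of all genes were 42.5%, 21.8% and 20.7%. The median log2 fold change was -0.26 over the 9 members and -0.013 over all genes tested.

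**Figure D1:**
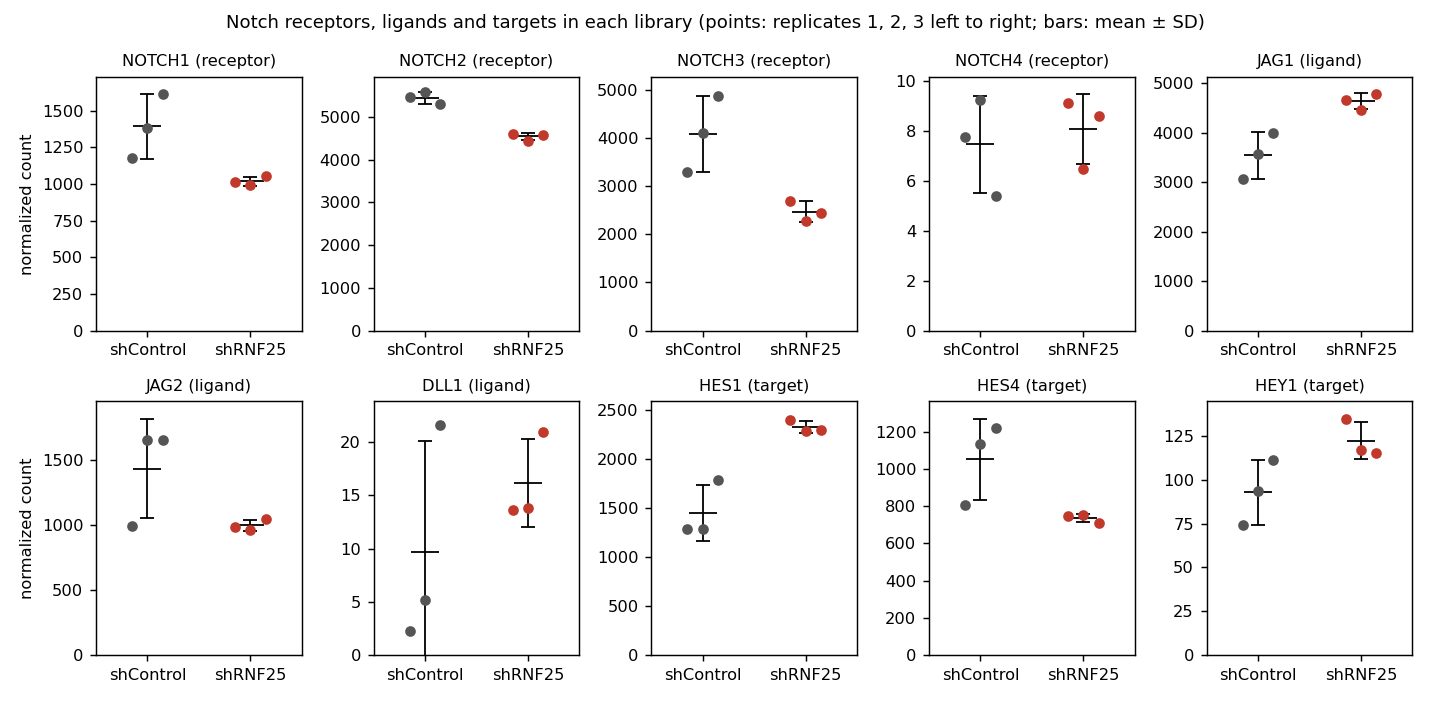
Normalized count (y axis, starting at 0, a scale of its own in each panel) of the 10 Notch genes in 3 shControl and 3 shRNF25 libraries, with points for replicates 1, 2 and 3 from left to right and bars for the mean ± SD. The shRNF25 points lie below all shControl points for NOTCH1, NOTCH2, NOTCH3 and HES4 and above them for JAG1, HES1 and HEY1, while NOTCH4, JAG2 and DLL1 overlap; the lower bar of DLL1 is clipped at 0.

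All 3 receptors with substantial expression lay lower in shRNF25 than in shControl, and the decrease of NOTCH3 passed the call. NOTCH3, the receptor best known from vascular smooth muscle and from the inherited small vessel disease CADASIL, lies on chromosome 19 from 15159038 to 15200981 on the minus strand (GENCODE 29, GRCh38, as for all positions). Its normalized count was 3294, 4100 and 4878 in shControl and 2697, 2274 and 2443 in shRNF25. Each shRNF25 library lay below each control, with shControl replicate 1 nearest to them. The mean went from 4091 ± 792 to 2471.3 ± 213 (SD, n = 3 each), which is 60.4% of the control level. On the log2 scale NOTCH3 fell by 0.71 with a standard error of 0.149, and limma gave an adjusted p of 0.00968. Exact permutation of the 6 values, two-sided, gave p = 0.1, and a design of 3 against 3 cannot go lower. Without shControl replicate 1 the change was -0.86 with an adjusted p of 0.000280 from limma. After GC correction it was -0.735 with an adjusted p of 0.000656 from limma, and the SD of the log2 control values went from 0.284 to 0.098. NOTCH3 lost the call without shRNF25 replicate 2 (adjusted p = 0.0553 from limma) and, through the fold change, without shControl replicate 3 (-0.58) and with quantile normalization (-0.56). Its adjusted p lay between 0.000280 and 0.0553 over 16 alternatives.

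NOTCH1, the receptor first linked to T-cell leukaemia, lies on chromosome 9 from 136494433 to 136545786 on the minus strand. Its normalized count was 1177, 1385 and 1616 in shControl and 1010.5, 990.0 and 1053 in shRNF25. The groups did not overlap, and the spread among controls was several times that among shRNF25 libraries (SD 219 and 32.3). The level in shRNF25 was 73.1% of control, or -0.44 ± 0.130 (SE) on the log2 scale with an adjusted p of 0.0408 from limma, below the fold change required for a call. The adjusted p exceeded 0.05 under 9 of 16 alternatives, with a range of 0.00128 to 0.152. After GC correction it was 0.00382 at -0.46, and without shControl replicate 1 it was 0.00128 at -0.56.

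NOTCH2, the receptor with the largest read count of the family and, like JAG1, a gene mutated in Alagille syndrome, lies on chromosome 1 from 119911553 to 120069626 on the minus strand. It had 5456, 5589 and 5308 in shControl and 4611, 4448 and 4575 in shRNF25. This was the steadiest member among controls, with a coefficient of variation of 2.58%. All shRNF25 libraries were lower, at 83.4% of the control mean. A log2 fold change of -0.26 (95% interval -0.47 to -0.053) had an adjusted p of 0.0752 from limma, and quantile normalization brought it to -0.096. After GC correction the adjusted p was 0.0279 at -0.27, and without shControl replicate 1 it was 0.0184 at -0.26. The adjusted p of NOTCH2 exceeded 0.05 under 14 of 16 alternatives, with a range of 0.0184 to 0.484. NOTCH2NLA, a partial copy of NOTCH2 on the same chromosome, shares 4.03% of the stretches of 50 bases in the longest NOTCH2 coding transcript. The copies NOTCH2NLB, NOTCH2NLC and NOTCH2NLR are not in GENCODE 29 and were not compared. The deposited table lists them, so its annotation was not GENCODE 29. The copies took few reads themselves, at most 20 in any library for NOTCH2NLC, 9 for NOTCH2NLA, 3 for NOTCH2NLR and 1 for NOTCH2NLB.

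NOTCH4, a receptor of endothelial cells on chromosome 6 from 32194843 to 32224067 on the minus strand, was close to the limit of detection. It had 7, 9 and 5 reads in shControl and 10, 7 and 9 in shRNF25. These values overlap, and a difference was not detectable at this depth. GPSM3 overlaps NOTCH4 on the same strand.

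The means of the Jagged ligands differed in opposite directions, and neither passed the call. JAG1, on chromosome 20 from 10637684 to 10673999 on the minus strand, had normalized counts of 3059.9, 3573 and 3999 in shControl and 4661, 4466 and 4784 in shRNF25. All shRNF25 libraries lay above all controls, at 131% of the control mean. Limma gave a log2 difference of 0.40 ± 0.119 (SE) and an adjusted p of 0.0431, under the fold change of a call. The adjusted p ranged from 0.0141 to 0.171 over 16 alternatives and exceeded 0.05 under 6. After GC correction it was 0.0231 at 0.38, and without shControl replicate 1 it was 0.0177 at 0.29.

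JAG2, on chromosome 14 from 105140981 to 105168824 on the minus strand, had 996, 1656 and 1656 in shControl and 986, 965 and 1046 in shRNF25. A single control, replicate 1, lay among the shRNF25 values and the other controls stood well above them. JAG2 had a log2 fold change of -0.49 (95% interval -0.91 to -0.061, adjusted p = 0.0990 from limma). Without shControl replicate 1 it was -0.73 with an adjusted p of 0.000124, and after GC correction -0.51 with an adjusted p of 0.00705, both from limma, of which the first passes the call. Over all 16 alternatives the adjusted p lay between 0.000124 and 0.253, and each kept the value below 0.

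DLL1, a Delta-like ligand on chromosome 6 from 170282206 to 170306565 on the minus strand, was rare. It had 2, 5 and 20 reads in shControl and 15, 15 and 22 in shRNF25. The shRNF25 libraries were alike, whereas shControl replicate 3 matched them and the other controls were lower. Its log2 fold change of 1.14 had a 95% interval of -0.28 to 2.56 (adjusted p = 0.228 from limma). It was 1.93 with an adjusted p of 0.0149 without shControl replicate 3 and 0.52 without shControl replicate 1, with adjusted p-values of 0.0149 to 0.473 over 15 alternatives. After GC correction it was 1.12 with an adjusted p of 0.178. FAM120B overlaps DLL1 on the other strand. The study's methods name a stranded library kit, but the strand setting of the counting is not given in the sources used here. Reads of the overlap may therefore not have been told apart. AL078605.1 overlaps DLL1 and AL512356.1 overlaps JAG2 on the same strand, where no strand setting separates reads. Genes of microRNAs overlap NOTCH1, NOTCH3, JAG1 and JAG2, and antisense RNA genes overlap NOTCH1 (AL592301.1) and JAG1 (AL050403.2).

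HES1 rose, and neither HES4 nor HEY1 passed the call. HES1, the best known Notch target and a repressor of differentiation genes, lies on chromosome 3 from 194136145 to 194138732 on the plus strand. It had normalized counts of 1283, 1282.5 and 1783 in shControl and 2404, 2291 and 2298 in shRNF25. Every shRNF25 library lay well above every control, and the shRNF25 libraries were close together. The mean rose from 1450 ± 289 to 2331 ± 63.0 (SD, n = 3 each), which is 1.61-fold. On the log2 scale HES1 rose by 0.70 with a standard error of 0.140 and an adjusted p of 0.00783 from limma, and the exact permutation test gave the smallest possible p of 0.1. HES1 stayed above 0 with an adjusted p below 0.05 under all 16 alternatives, between 0.000263 and 0.0490, and its log2 fold change stayed between 0.62 and 0.86. Without shControl replicate 1 it was 0.62 and after GC correction 0.685.

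HES4, a relative of HES1, lies on chromosome 1 from 998962 to 1000172 on the minus strand. It had 807, 1133 and 1219.6 in shControl and 745, 751 and 712 in shRNF25. All shRNF25 libraries were lower than all controls, with shControl replicate 1 close above them. The level was 69.9% of control, or -0.49 ± 0.156 (SE) on the log2 scale, with an adjusted p of 0.0516 from limma. Without shControl replicate 1 it was -0.67 with an adjusted p of 0.000263, which passes the call. After GC correction it was -0.585 with an adjusted p of 0.00108, which passes it too, and the SD of the log2 control values went from 0.317 to 0.047. The adjusted p ranged from 0.000263 to 0.171 over 16 alternatives, all with a value below 0.

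HEY1, a target that acts downstream of Notch in vessels and heart, lies on chromosome 8 from 79764010 to 79767863 on the minus strand. It had 74.1, 93.4 and 111 in shControl and 135, 117 and 115 in shRNF25. The groups were separated only narrowly, between shControl replicate 3 and shRNF25 replicate 3. The log2 fold change of 0.41 (95% interval -0.010 to 0.83) had an adjusted p of 0.150 from limma, with 0.0567 to 0.395 over 16 alternatives. Without shControl replicate 1 it was 0.26, and after GC correction 0.42 with an adjusted p of 0.123.

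**Figure D2:**
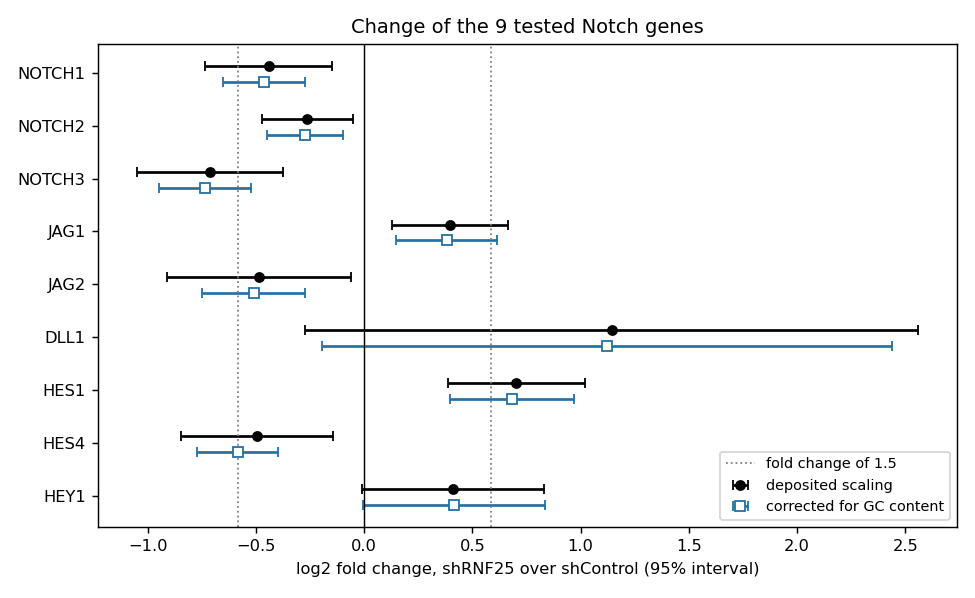
Log2 fold change of shRNF25 over shControl (x axis) with 95% intervals for the 9 tested members, from the deposited scaling (black) and after correction for GC content (blue squares); dotted lines mark a fold change of 1.5. NOTCH3 at -0.71 and HES1 at 0.70 lie beyond the dotted lines, the blue interval is narrower than the black one for all 9 members, least so for HEY1, and DLL1 has the widest interval.

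Ratios within a library were compared because they do not depend on its scaling, although they do carry a dependence on GC content. HES1 had 1.59, 1.13 and 1.46 times the normalized count of HES4 in shControl and 3.23, 3.05 and 3.23 times in shRNF25. The shRNF25 libraries were close to each other and above all controls, with a 2.29-fold higher ratio (difference in log2 ratio 1.198). The ratio of JAG1 to JAG2 was 3.07, 2.16 and 2.42 in shControl and 4.73, 4.63 and 4.58 in shRNF25, a 1.84-fold higher ratio. The ratio of NOTCH2 to NOTCH3 was 1.66, 1.36 and 1.09 in shControl and 1.71, 1.96 and 1.87 in shRNF25, with shControl replicate 1 close to the shRNF25 libraries. NOTCH1 over NOTCH3 and HES1 over HEY1 were also higher in every shRNF25 library, by 1.21-fold and 1.22-fold. NOTCH1 over NOTCH2 overlapped between the groups. For the 5 pairs without overlap the two-sided exact permutation test gave p = 0.1, the smallest possible, and 0.12 after adjustment over the 6 pairs, while NOTCH1 over NOTCH2 gave 0.4, so none could reach 0.05. Leaving out any 1 library kept the direction of every pair, with a difference in log2 ratio of 1.054 to 1.3 for HES1 over HES4 and 0.77 to 1.02 for JAG1 over JAG2.

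**Figure D3:**
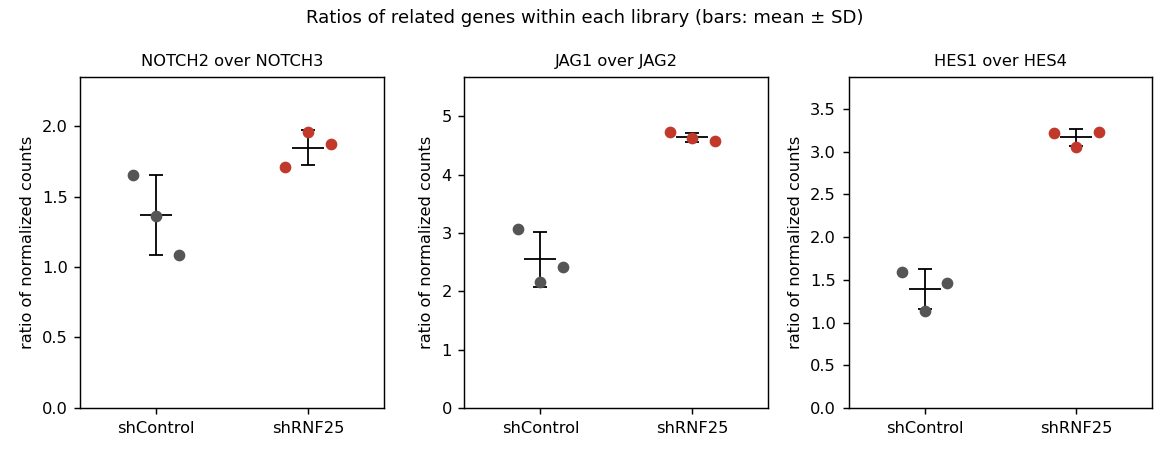
Ratio of normalized counts within each library (y axis, starting at 0) for NOTCH2 over NOTCH3, JAG1 over JAG2 and HES1 over HES4, with points for replicates 1, 2 and 3 and bars for the mean ± SD of 3 libraries. The shRNF25 ratios of HES1 over HES4 lie between 3.05 and 3.23 and those of shControl between 1.13 and 1.59.

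Levels were compared between genes per kilobase of merged exons. In shControl, HES4 (942 ± 195, SD, n = 3) and HES1 (703 ± 140) were highest and did not separate. NOTCH3 (436 ± 84.3), JAG1 (381 ± 50.6) and NOTCH2 (324 ± 8.36) followed, and each range overlapped the next in this order, while those of NOTCH3 and NOTCH2 did not overlap. JAG2 (225 ± 59.5) and NOTCH1 (134 ± 21.1) came next and met at the edge of their ranges. HEY1 (28.7 ± 5.74) stood clearly apart from DLL1 (2.99 ± 3.24) and NOTCH4 (0.765 ± 0.198), which overlapped. In shRNF25 the order was HES1 (1130 ± 30.6), HES4 (658 ± 18.8) and JAG1 (499 ± 17.2), each without overlap with the next. NOTCH2 (270.3 ± 5.10) and NOTCH3 (263 ± 22.7) overlapped, and JAG2 (156 ± 6.54), NOTCH1 (98.1 ± 3.11), HEY1 (37.9 ± 3.33), DLL1 (5.01 ± 1.29) and NOTCH4 (0.826 ± 0.144) lay below in this order. With the length of the longest coding transcript instead, the means of JAG1 (597) and NOTCH2 (479) lay above that of NOTCH3 (472) in shControl. The range of NOTCH3 (380 to 563) overlapped those of JAG1 (515 to 673) and NOTCH2 (466 to 491), so neither separated from NOTCH3. In shRNF25, JAG1 (781) lay above HES4 (708) without overlap.

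**Figure D4:**
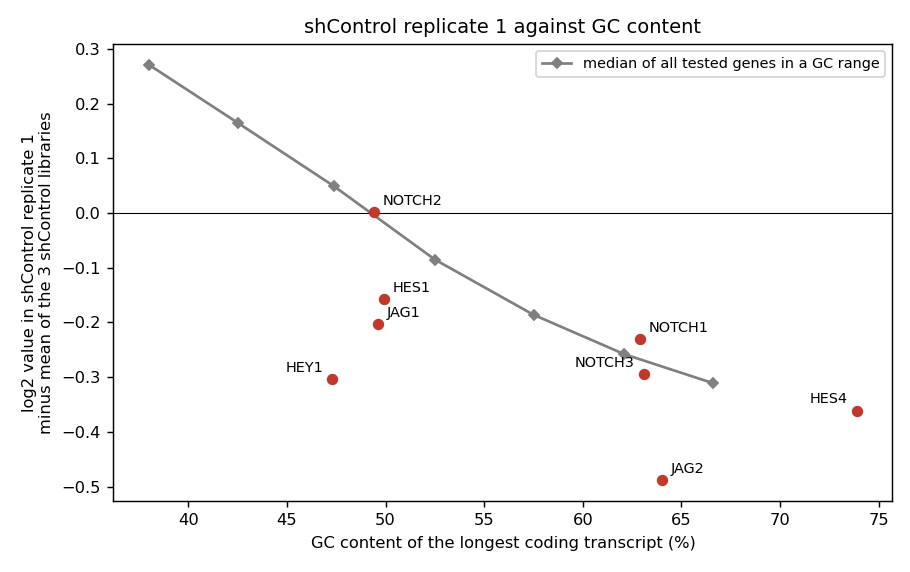
GC content of the longest coding transcript in percent (x axis) against the log2 value in shControl replicate 1 minus the mean of the 3 shControl libraries (y axis), for 8 members (red points, DLL1 left out for its few reads) and as the median of all tested genes in each of 7 GC ranges (grey line). The line falls from 0.27 to -0.31, NOTCH1 (-0.23) and NOTCH3 (-0.29) lie near it, and JAG1 (-0.20), JAG2 (-0.49), HES1 (-0.16) and HEY1 (-0.30) lie below it.

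The median log2 fold change between the groups hardly followed GC content. It ran from -0.075 for genes up to 40% GC to 0.051 for genes above 65% GC. Correction for GC content left the direction of all 9 members as it was. It raised the SD of the log2 control values of HEY1 from 0.291 to 0.326 and lowered that of the other members. Among pathway genes described below, this SD rose for POGLUT1 (0.0788 to 0.237), CREBBP (0.304 to 0.429) and DTX2 (0.216 to 0.441). The SD fell for TLE4 (0.352 to 0.317), HES2 (0.249 to 0.223) and HES7 (0.256 to 0.142). With the correction, the adjusted p was below 0.05 for 7 members, all except DLL1 and HEY1. Of these, 5 were lower and 2 higher, where 15.5% and 13.6% of all 15975 genes were. Then 2 members were called lower (NOTCH3 and HES4) and 1 higher (HES1), where 7.86% and 9.28% of all genes were.

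Besides the 10 members, a list of 64 other genes of the pathway was compiled from general knowledge. Of these, 62 were in the table and 57 were tested. The call was passed by 4 lower and 2 higher genes, 6 of 57 in all, where 15.7% of all tested genes were called in either direction. By the adjusted p alone, 11 of the 57 were lower and 4 higher, where 10.8% and 10.5% of all genes were. For 27 of the 57 the groups were without overlap, where 42.5% of all genes were. The median log2 fold change of the list was -0.079.

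The largest changes in the list were those of HES7, POGLUT1 and HES2. POGLUT1, which adds the O-glucose that Notch receptors need for function, had 202, 226 and 213 in shControl and 539, 513 and 486 in shRNF25. The groups were far apart, and the log2 difference was 1.26 ± 0.120 (SE) with an adjusted p of 0.000194 from limma. HES7, the oscillating repressor of the somite clock, had 31.0, 34.9 and 44.3 in shControl and 10.9, 13.9 and 8.58 in shRNF25, a log2 fold change of -1.64 (adjusted p = 0.00372 from limma). HES2, a further family member, had 899, 1221 and 913 in shControl and 551, 484 and 485 in shRNF25, a log2 fold change of -0.98 (adjusted p = 0.00181 from limma). Both HES genes were lower in every shRNF25 library than in any control. POGLUT1, HES2 and HES7 were called under every alternative scaling, filter, tool and left-out library in which they were tested. HES6, an inhibitor of HES1, was the third tested gene of this group and did not pass (0.29, adjusted p = 0.414 from limma), while HES3, HES5 and HEYL had too few reads to be tested.

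Of the 8 tested genes of the nuclear complex, CREBBP, a histone acetyltransferase recruited by the Notch complex, rose, with 1990 (shControl replicate 1), 1306 and 1568 in shControl and 2395, 2726 and 2455 in shRNF25 (log2 fold change 0.66, adjusted p = 0.0156 from limma). It lost the call without shControl replicate 2 (0.51) and without shRNF25 replicate 1, 2 or 3 (adjusted p = 0.0577, 0.0779 and 0.0595 from limma). RBPJ had 2080 (shControl replicate 1), 1257 and 1333 in shControl and 1122, 1061 and 1149.5 in shRNF25. Its shRNF25 values lay below the controls, but the adjusted p was 0.108 from limma. Of the 12 corepressors, TLE4, a Groucho-type partner of HES proteins, fell from 460, 343 and 283 to 204, 210 and 214 (log2 fold change -0.76, adjusted p = 0.0164 from limma). It lost the call without shControl replicate 1 (-0.57) and without shRNF25 replicate 1, 2 or 3 (adjusted p = 0.0761, 0.0653 and 0.0612 from limma). Of the 10 tested inhibitors and turnover factors, DTX2, a Deltex ubiquitin ligase, fell from 713, 569 and 536 to 405, 387 and 373 (log2 fold change -0.63, adjusted p = 0.0110 from limma). It lost the call without shControl replicate 1 (-0.51) and without shRNF25 replicate 2 or 3 (adjusted p = 0.0560 and 0.0634 from limma), and its fold change was under 1.5 with quantile normalization (-0.575) and rescaling on abundant genes (-0.565). NRARP, a feedback inhibitor that Notch itself induces, had 209, 175 and 209 in shControl and 179.5, 169 and 168 in shRNF25. Its values overlapped and its adjusted p was 0.347 from limma.

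Among the 8 genes of receptor cleavage, 0 passed the call, and 3 had an unadjusted p below 0.05, where 35.4% of all tested genes had one. ADAM10, the protease of the first ligand-induced cut, had a log2 fold change of -0.50 with an adjusted p of 0.0203 from limma, under the fold change of a call. The 4 tested other ligands (DLL3, DLL4, DLK2 and DNER) and the 6 genes of ligand endocytosis held 0 calls, with 2 and 2 genes at an unadjusted p below 0.05, against the same share of all genes. With edgeR and DESeq2 on the recovered reads these 3 groups likewise held 0 calls.

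**Figure D5:**
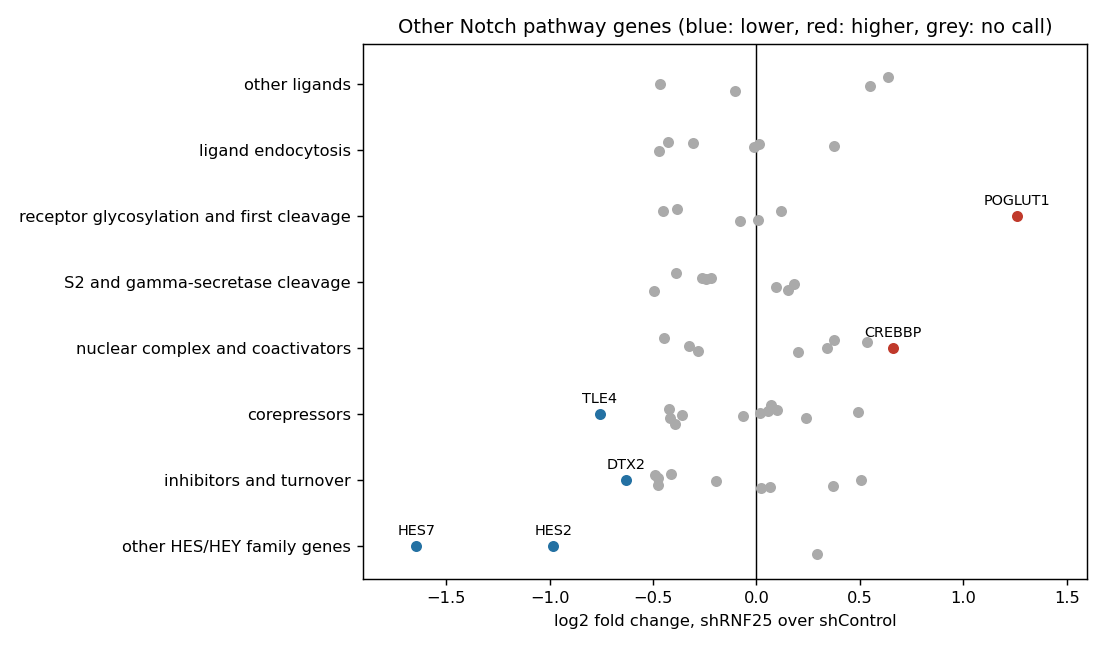
Log2 fold change of shRNF25 over shControl (x axis) for the 57 tested other Notch pathway genes, in rows by role, with called lower genes in blue, called higher genes in red and the rest in grey. POGLUT1 at 1.26 and HES7 at -1.64 are the outermost points, and the genes with no call lie between -0.50 and 0.64.

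Among all tested genes, the pattern most like that of HES1, the member with the largest moderated t, was sought by Pearson correlation of log2 values over the 6 libraries. The 3 closest were the long non-coding RNA gene AC002401.4 (r = 0.999), ZNF503 (r = 0.998) and MS4A7 (r = 0.998). A correlation over libraries of 2 groups follows the difference between them, and 533 of 16553 genes reached at least 0.95. AC002401.4 had few reads, with a mean normalized count of 6.45 in shControl and 29.1 in shRNF25. MS4A7 had a mean of 27.3 in shControl and 298 in shRNF25, and ZNF503 of 1258 and 1587. Genes alike in pattern thus differed widely in size of change.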

How the data were processed

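RNA-seq of SW839 cells was analysed for 3 shControl and 3 shRNF25 libraries. Per the labels, the submitters named fastp, HISAT2, HTSeq and GRCh38, and the study's methods name DESeq2. The annotation, tool versions and strand setting of the counting are not given in the sources used here. The deposited signal values are read counts that the authors divided by a size factor per library. All values became whole reads within a tolerance of 0.01 once the factor (0.905 to 1.10) was recovered. Totals of 18647460 to 19943154 reads limit precision for rare genes, and counting error is only part of the spread.

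Values were tested as log2(normalized count + 1) with limma 3.58.1 in R 4.3.3 (trended empirical Bayes, without a replicate block) over the 16554 genes with at least 10 in at least 3 libraries, with Benjamini-Hochberg adjustment. Genes with an adjusted p below 0.05 were called where they also differed by 1.5-fold or more. On the recovered reads, edgeR 4.0.16 (quasi-likelihood, TMM) called 1133 genes lower and 1525 higher, and DESeq2 1.42.0 called 1220 and 1414. Ratios within libraries were compared by two-sided exact permutation tests. Other alternatives were a pseudocount of 5 or 0.5, no filter, a minimum of 50, quantile normalization, rescaling on abundant genes (mean of at least 100), the replicate block, a fold change of at least 2 and leaving out each library. A GC correction (loess, span 0.3, GC of the longest coding transcript, known for 96.5% of tested genes) was chosen after the data had been seen. The limma fit was tested on simulated reads with the same dispersion in both groups, so this did not check the unequal spread of the groups seen here.

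Genes named were the 10 members, RNF25, the partial copies of NOTCH2, other pathway genes that passed the call, and the 3 genes most correlated with the member of largest moderated t. RBPJ, NRARP, HES6, ADAM10 and the markers named were picked after their values were seen. The values of 1 marker gene are not reported here. The members and lists were chosen with earlier results of these data known. Positions and exon lengths are from GENCODE 29. RefSeq promoters matched 8 of the 10 members, all but DLL1 and HEY1. The series text calls the libraries biological triplicates, and where cultures were not separate the p-values measure only the spread between libraries. Handling that differed between shControl and shRNF25, if any, cannot be told apart from the effect of the hairpin.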

Additional observations from a re-analysis of the deposited data

How the results depend on the processing

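No fold change of a Notch gene or RNF25 and no ratio changed direction under any alternative run. HES1 kept an adjusted p below 0.05 (limma, or edgeR and DESeq2 on reads) under all 16 alternatives and RNF25 under all 16. The number of Notch genes called lower was 1 and became 0 with quantile normalization, 0 at a fold change of at least 2 and 2 with the GC correction, and 0 to 3 when a library was left out. It was 3 without shControl replicate 1, and 0 without shControl replicate 3 or shRNF25 replicate 2. In these 3 runs, 1253, 1269 and 827 of all 16554 genes were called lower, against 1175 with all libraries. The number called higher was 1 and became 0 at a fold change of at least 2 and 1 to 2 when a library was left out, with DLL1 added without shControl replicate 3.

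For the other pathway genes, 4 lower and 2 higher became 1 and 1 at a fold change of at least 2. Leaving out a library gave 2 to 7 lower and 1 to 4 higher, with 7 lower without shControl replicate 3, 2 lower without shRNF25 replicate 2 or 3, and 4 higher without shControl replicate 1. There was 1 higher without shControl replicate 2 or any single shRNF25 library. The cause was not tested. Among all genes, the 1432 called higher became 898 with the minimum of 50, where fewer genes were tested. When a library was left out they were 748 to 1725, with 1572 without shControl replicate 1 and 1725 without shControl replicate 3. The 1175 called lower became 813 to 1269 when a library was left out. They were 1269 without shControl replicate 3, and 827 and 823 without shRNF25 replicate 2 and 3.

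Same-numbered libraries did not deviate together (correlations of -0.064, -0.087 and 0.047), so the replicate numbers were not taken to pair the libraries. With the replicate block, 1 Notch gene was called lower and 1 higher, and 4 and 2 other pathway genes. The adjusted p from limma became 0.0529 for NOTCH1 and 0.0648 for JAG1.

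Per kilobase of the longest coding transcript, shControl levels were 919 for HES1, 597 for JAG1, 479 for NOTCH2, 40.5 for HEY1 and 1.11 for NOTCH4, above those per kilobase of merged exons by more than the spread between replicates. Depth limits NOTCH4 and DLL1, which had at most 22 reads in any library.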
